A study of Arabidopsis thaliana with 6 samples.

Results

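Transcripts of 6 of 7 measured tubulin genes were lower in Arabidopsis rosettes after 48-h light submergence than in untreated controls. So were those of 9 of 15 measured IQD scaffold genes, where 22.6% of all genes were lower. The 9 include IQD33, whose signal was too low for a fold, and IQD19, whose call was less firm. The alpha-tubulin gene TUA1 and the vacuole-associated NET4B were higher. Of 10 actin-linked NET genes, 2 were lower and 1 was higher, shares close to those of all genes. These genes were taken from the array annotation by symbol, as the probe sets assigned to a single gene named IQD, TUA, TUB, MAP65, MAP70, ACT, ADF, PRF, FH, VLN, KIN, ATK or NET and a number, without the cold-induced KIN1 and KIN2. The symbols found 35 genes among the 13286 genes with a probe set of their own. They comprised 15 IQD, 10 NET, 7 tubulin and 2 actin genes and 1 MAP65 gene, each measured by 1 probe set. MAP70, actin-depolymerizing factor, profilin, formin, villin and kinesin genes had no single-gene match under these symbols. A further 2 probe sets that matched were each assigned to more than 1 gene and were not used.

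Light-submerged plants were 4-week-old wild-type Columbia plants held 5 to 10 cm under water in the light for 48 h, and control plants of the same ecotype and age were untreated and harvested at 0 h. Each condition had 3 biological replicates, each collected from 3 plants according to the methods, and each replicate was hybridised to 1 ATH1 array, a 1-colour Affymetrix chip of short oligonucleotides. The tissue is labelled as leaves and described in the methods as rosettes. The submerged plants were also 48 h older at harvest and, by the methods, received weaker light than during growth, so submergence, light and the interval cannot be told apart.

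Microtubules are hollow polymers of alpha- and beta-tubulin dimers. In growing leaf cells they lie beneath the plasma membrane and guide the complexes that spin cellulose into the wall. MAP65 proteins bundle neighbouring microtubules, IQD proteins bind calmodulin through their IQ motifs and many of them sit on microtubules, and NET proteins tie actin filaments to membranes. Tubulins, actins and these partners are encoded by families whose members differ in where they are expressed, and TUA1, TUB9, ACT12 and the NET2 genes are best known from pollen.

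The values are log2 signals, so that a difference of 1 is a doubling. A call of change needed a limma adjusted p under 0.05, with adjustment over all 22746 probe sets, and a difference of 1.5-fold or more. Background was taken as the 40th percentile of each array, which lay at log2 signals of 5.55 to 5.84 on the submerged arrays and 6.17 to 6.39 on the control arrays. Correlations between arrays were 0.921 among the submerged and 0.909 to 0.924 among the control arrays, and 0.732 to 0.806 across conditions. Of 22 cell type markers, 3 had a probe set of their own. The leaf gene RCA had mean log2 signals of 14.03 after submergence and 15.14 in the control, the guard cell gene FAMA had 6.79 after submergence and 7.35 in the control, and the root gene PYK10 was above background on 0 of 3 submerged and 1 of 3 control arrays. RCA itself fell (log2 fold change -1.11, limma adjusted p = 0.00457). FAMA (log2 fold change -0.56, limma adjusted p = 0.389) and PYK10 did not pass the test. No marker of dividing cells, pollen or xylem had a probe set assigned to it alone in the annotation used. The arrays cannot separate fewer cells of a type from less RNA per cell.

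Of the 35 genes, 19 fell, 2 rose and 14 did not pass the test. That is 54.3% lower and 5.71% higher, where 22.6% of all 13286 genes fell and 15.7% rose. The arrays placed 10 of the 35 below background throughout, and 1 of these, IQD33, is among the 19. The median log2 fold change of the 35 genes was -1.20, against -0.29 over all genes, and 27 of 35 had a value below 0, which was the case for 58.5% of all genes. The median was the same when the 4 genes that have only a lower bound of their fold were set to that bound. It could not differ, because each of these bounds exceeds the 2.30-fold decrease of the median gene, TUB9. The 3 submerged and the 3 control arrays did not overlap for 21 of the 35 genes, while this held for 50.5% of all genes. Brightness moved with these shares. Of the 35 genes, 20 had a mean signal over the 6 arrays above the background level averaged over these arrays. Among them 14 fell and 2 rose, where 32.1% of the equally defined genes fell and 26.2% rose. Their median log2 fold change was -2.28, against -0.13. This mean signal spans both conditions, so a gene can pass through its control signals alone. IQD30 passed with 0 of 3 submerged arrays above background, and IQD21 and IQD22 passed with 1 of 3 each. Of the 35 genes, 12 were above background on all 6 arrays. Of the 15 dimmer genes, 5 fell, where 11.2% of the dimmer genes fell. No set test was made, so these shares are descriptions, and the part of brightness in them was not tested.

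**Figure D1:**
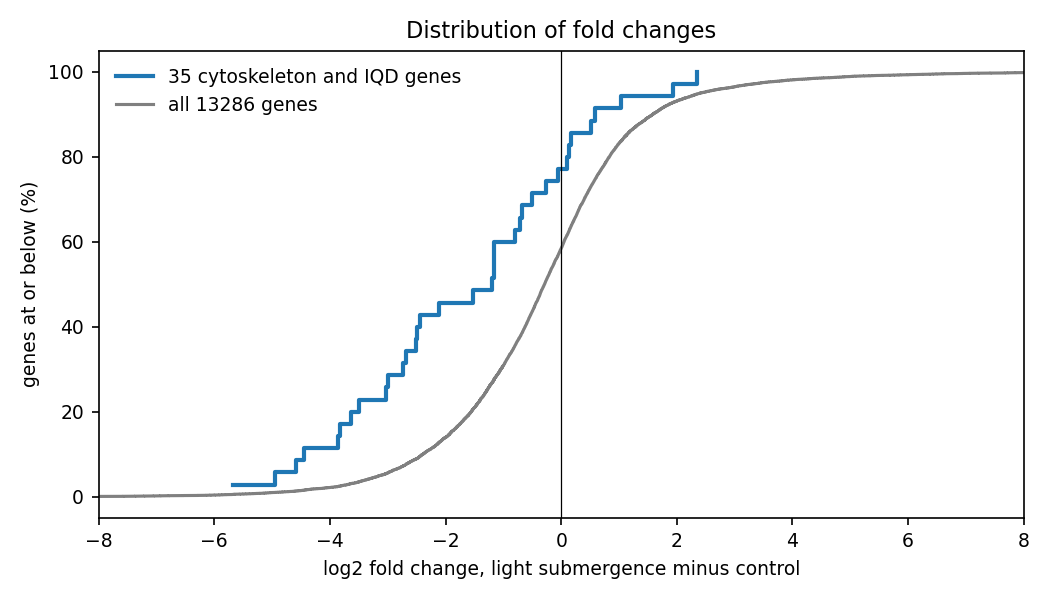
Cumulative distribution of the log2 fold change, light submergence minus control, on the horizontal axis, with the percentage of genes at or below each value on the vertical axis, for the 35 cytoskeleton and IQD genes and for all 13286 genes. The curve of the 35 genes lies to the left through most of its range, with a median of -1.20 against -0.29, both over all genes whether above background or not.

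All 7 measured tubulin genes changed, 6 of them downward, where 22.6% of all genes fell and 15.7% rose. Tubulin isotypes without a single-gene match under these symbols were not measured, so the 7 do not stand for the whole family. The conditions did not overlap for any of the 7, nor for 50.5% of all genes. The 5 measured beta-tubulin genes fell without exception and had a median log2 fold change of -3.63, or -3.00 with TUB1 at its lower bound. TUB1, a beta-tubulin isotype, had log2 signals of 4.67, 0.01 and 3.81 on the submerged arrays and 8.58, 8.23 and 8.70 on the control arrays. It was above background on every control array and on none of the submerged ones, and it was at least 6.78-fold lower after submergence (limma adjusted p = 0.00111). That bound sets the control mean against the mean background level of the submerged arrays. The fitted log2 fold change was -5.67, or -4.26 without the second submerged replicate and -6.59 without the first.

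TUB7 and TUB5, further beta-tubulin isotypes, also fell. TUB7 had log2 signals of 6.50, 5.46 and 6.21 after submergence, with 2 of 3 arrays above background, against 10.06, 9.67 and 9.93 in the control, a log2 fold change of -3.83 (with an SE of 0.28, limma adjusted p = 2.85e-06). TUB5 had 7.88, 6.95 and 9.48 after submergence against 11.68, 11.75 and 11.78 in the control (log2 fold change -3.63 with an SE of 0.49, limma adjusted p = 0.000142). Its control arrays lay within a narrow span (SD 0.06, n = 3), whereas its submerged arrays were spread widely (SD 1.28, n = 3), with the third replicate nearest to the control. Without that replicate the log2 fold change was -4.32.

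TUB6, whose transcript is known to decline in the cold, had log2 signals of 8.74, 7.75 and 9.25 after submergence and 11.61, 11.38 and 11.76 in the control, and was 8.02-fold lower (with an SE of 0.31 on the log2 scale, limma adjusted p = 2.62e-05). TUB9, an isotype known from pollen, had 10.11, 10.10 and 10.35 after submergence against 11.18, 11.46 and 11.52 in the control, and fell 2.30-fold (limma adjusted p = 8.31e-05). This was the smallest decrease of the measured beta-tubulin genes.

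The 2 measured alpha-tubulin genes moved in opposite directions. TUA6, the isotype widely used to label microtubules with a fluorescent tag, had log2 signals of 10.78, 10.67 and 10.58 after submergence and 12.85, 12.89 and 12.64 in the control, and was 4.33-fold lower (log2 fold change -2.11 with an SE of 0.14, limma adjusted p = 1.62e-06). TUA1, best known from pollen, had 10.22, 10.52 and 10.04 after submergence and 8.51, 8.10 and 8.36 in the control, and was 3.84-fold higher (log2 fold change 1.94 with an SE of 0.18, limma adjusted p = 1.19e-05). Every array of both genes was above background, and within each condition the replicates stayed close together. No pollen marker had a probe set assigned to it alone in the annotation used.

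MAP65-6, the 1 MAP65 gene found by these symbols, also fell. Its log2 signal was 6.77, 6.22 and 7.16 after submergence and 9.65, 8.74 and 9.32 in the control, all above background, which is 5.73-fold lower (log2 fold change -2.52 with an SE of 0.31, limma adjusted p = 7.8e-05).

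**Figure D2:**
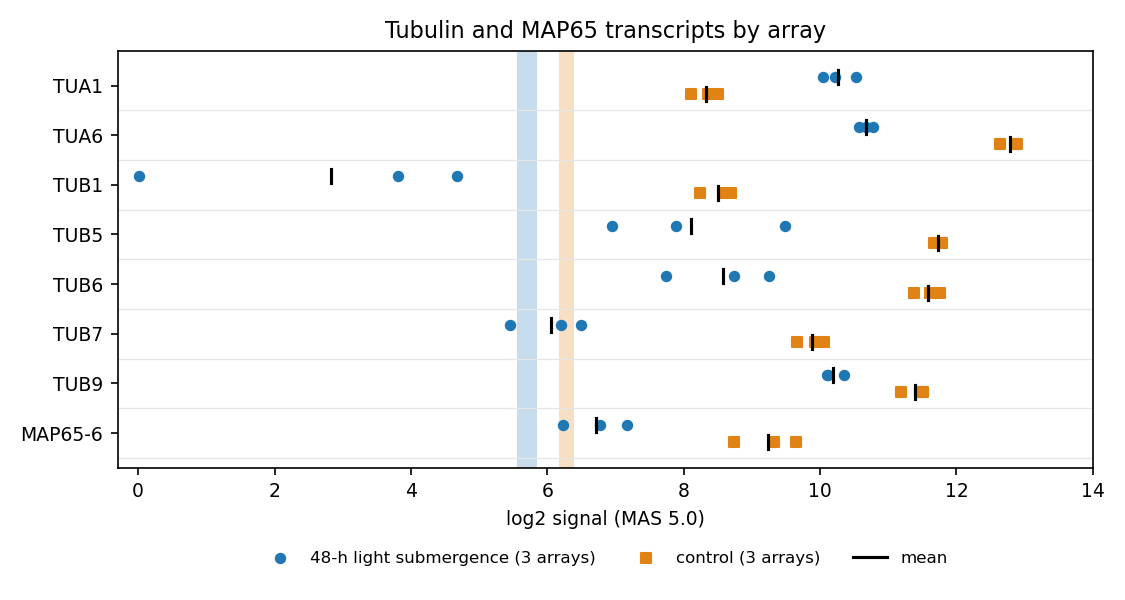
Log2 signal of the 7 tubulin genes and MAP65-6 on the horizontal axis, with 1 gene per row, for 3 arrays of 48-h light submergence (blue circles) and 3 control arrays (orange squares). Black bars are means, and the blue and orange bands span the background levels of the submerged and the control arrays. TUA1 lies further right after submergence, the other genes further left, and TUB1 falls below the background band.

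Among the 15 IQD genes, 9 fell and 6 did not pass the test, while 0 rose. Over all genes, 22.6% fell and 15.7% rose. Of the 9, IQD33 was below background on every array, as were 5 of the 6 that did not pass, so no median is given. IQD24 and IQD21 had high control signals and fell. IQD24 had log2 signals of 6.12, 1.64 and 6.76 after submergence and 9.14, 9.52 and 9.63 in the control (log2 fold change -4.59 with an SE of 1.06, limma adjusted p = 0.00487). The second submerged replicate, at 1.64, was the only one of the 3 below background, and without it the log2 fold change was -2.99, against -5.55 without the third and -5.23 without the first. IQD21 had 5.25, 3.67 and 7.04 after submergence, with 1 array above background, against 9.57, 9.92 and 9.81 in the control (log2 fold change -4.45, limma adjusted p = 0.000289). For IQD21 it was -3.62 without the second and -5.31 without the third submerged replicate. Both genes had tight control values and widely spread submerged ones.

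IQD30 was at 4.66, 4.85 and 5.46 on the submerged arrays, all below background, and at 8.02, 7.77 and 8.26 on the control arrays, so that it was at least 4.84-fold lower (limma adjusted p = 0.000106). IQD31 remained above background on every array, with 7.13, 7.66 and 8.18 after submergence against 10.30, 9.95 and 10.04 in the control, and was 5.42-fold lower (log2 fold change -2.44 with an SE of 0.25, limma adjusted p = 2.4e-05). IQD22, which is known as an early gibberellin-responsive gene, had 5.85, 5.09 and 5.09 after submergence, with 1 array just above background, against 7.95, 7.97 and 7.62 in the control (log2 fold change -2.50, limma adjusted p = 0.000314). The submerged values of these genes were all below their control values, and the conditions did not overlap for 50.5% of all genes.

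Smaller decreases were found for IQD23 and IQD28, with every array above background. IQD23 had log2 signals of 7.23, 6.40 and 6.83 after submergence and 7.80, 8.14 and 8.02 in the control, and was 2.24-fold lower (limma adjusted p = 0.0074). IQD28 had 6.88, 7.09 and 7.70 after submergence and 8.57, 8.23 and 8.33 in the control, and was 2.23-fold lower (limma adjusted p = 0.00472). The conditions did not overlap for either gene, nor for 50.5% of all genes.

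The call for IQD19 was less firm. It had log2 signals of 2.62, 6.10 and 4.84 after submergence, with 1 array above background, against 7.55, 7.23 and 6.81 in the control (log2 fold change -2.68 with an SE of 0.80, limma adjusted p = 0.0187). The call was lost after quantile normalization (adjusted p = 0.0532), without the variance trend (adjusted p = 0.0636), at an adjusted p under 0.01, and when control replicate 1 (adjusted p = 0.0715) or control replicate 2 (adjusted p = 0.0564) was left out. Its log2 fold change was -1.73 without the first and -3.47 without the second submerged replicate. IQD33 also passed, at a limma adjusted p of 0.00622, with a mean log2 signal of 1.09 ± 0.36 after submergence and 4.96 ± 1.09 in the control (SD, n = 3 each). All 6 arrays lay below background, so no fold is given for it.

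IQD32 was the only IQD gene that was above background on all arrays without passing the test. Its log2 signals were 8.00, 7.99 and 8.53 after submergence and 8.37, 7.87 and 7.98 in the control, with a log2 fold change of 0.10 (with an SE of 0.24, limma adjusted p = 0.774), and the conditions overlapped. The other 5 that did not pass, IQD15, IQD16, IQD18, IQD26 and IQD27, were not above background on any array, and their log2 fold changes ranged from -1.52 for IQD18 to 1.03 for IQD26. Nothing can be said of their direction at these signals.

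**Figure D3:**
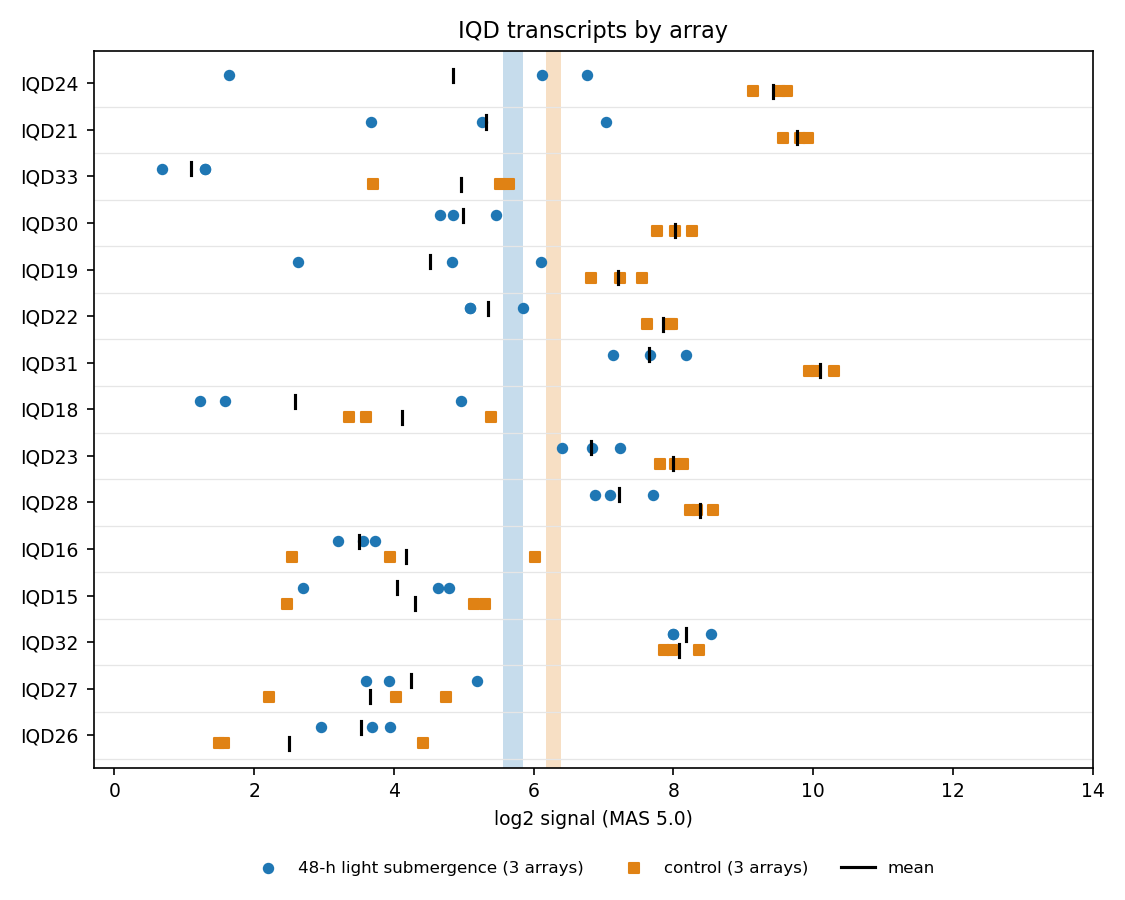
Log2 signal of the 15 IQD genes on the horizontal axis, with 1 gene per row ordered by fold change, for 3 arrays of 48-h light submergence (blue circles) and 3 control arrays (orange squares). Black bars are means and the bands span the background levels of each condition. The control values of IQD24, IQD21, IQD30, IQD22 and IQD31 lie well to the right of their submerged values, whereas those of IQD32 coincide.

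Of the 10 NET genes, 2 fell (20%), 1 rose (10%) and 7 did not pass the test, shares close to the 22.6% and 15.7% of all genes. NET4B, whose protein links actin to the vacuole membrane, had log2 signals of 8.80, 9.91 and 10.34 after submergence and 6.98, 7.49 and 7.52 in the control, and was 5.11-fold higher (log2 fold change 2.35 with an SE of 0.35, limma adjusted p = 0.000307). All of its arrays were above background, and 94.8% of all genes had a lower fold change.

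The NET1 genes, which include NET1A of the plasma membrane and plasmodesmata, had values below 0 in 4 of 4 cases. This held for 58.5% of all genes. NET1A and NET1B passed the test. NET1A was at 1.94, 4.78 and 4.39 on the submerged arrays, below background on each, and at 7.29, 6.85 and 7.48 on the control arrays, at least 2.76-fold lower (limma adjusted p = 0.00373). Its fitted log2 fold change was -3.51, or -2.62 without the first submerged replicate. NET1B had 5.28, 6.77 and 7.72 after submergence, with 2 arrays above background, against 9.20, 9.42 and 9.36 in the control (log2 fold change -2.74 with an SE of 0.49, limma adjusted p = 0.00104). Without the first submerged replicate, the lowest of the 3, the log2 fold change of NET1B was -2.08.

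NET1D had log2 signals of 6.02, 7.14 and 8.76 after submergence and 7.92, 7.98 and 8.14 in the control, and did not pass the test (log2 fold change -0.71, limma adjusted p = 0.346). The third submerged replicate exceeded every control array, while the other two lay below them. Without it, the log2 fold change was -1.43 and passed (limma adjusted p = 0.00889). NET1C did not pass either, with 5.05, 4.62 and 5.86 after submergence against 6.78, 6.53 and 5.73 in the control (log2 fold change -1.17, limma adjusted p = 0.118).

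The NET2 and NET3 genes did not pass the test. NET3A, described at the nuclear envelope, had 6.49, 6.45 and 6.38 after submergence and 5.90, 6.72 and 6.19 in the control (log2 fold change 0.17, limma adjusted p = 0.776). NET2D, known from pollen tubes, had 5.66, 6.19 and 6.52 after submergence and 6.37, 5.43 and 6.16 in the control (log2 fold change 0.13, limma adjusted p = 0.855). Both lay close to background in each condition. NET2C, NET3B and NET3C, the last a protein of contact sites between the endoplasmic reticulum and the plasma membrane, were not above background on any array.

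Of the actins, ACT11, an isotype of reproductive and growing tissues, fell. Its log2 signal was 2.16, 0.95 and 5.32 after submergence, below background on every array, and 8.25, 7.08 and 7.92 in the control, at least 4.03-fold lower (limma adjusted p = 0.00242). Its fitted log2 fold change was -4.94, or -6.20 without the third and -4.01 without the second submerged replicate. ACT12, known from pollen, had 4.26, 0.60 and 1.90 after submergence and 5.20, 0.88 and 0.85 in the control, all 6 values below background. The common leaf actins had no single-gene match under these symbols, so that ACT11 says nothing of total actin transcript.

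**Figure D4:**
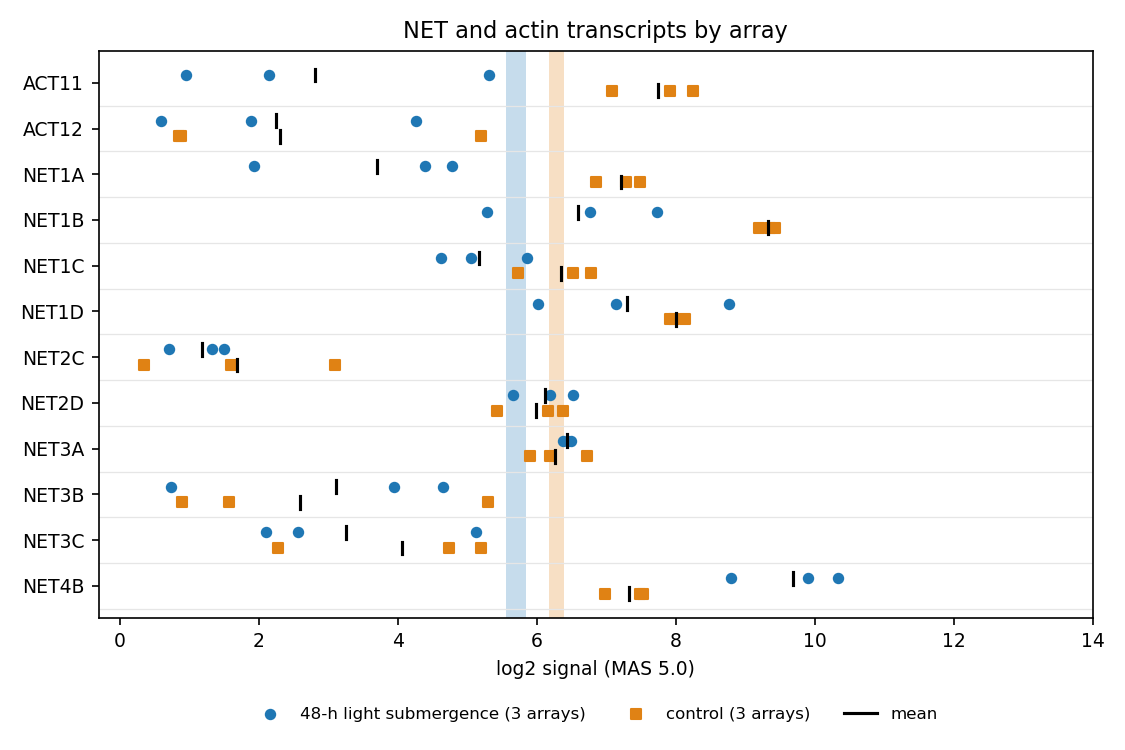
Log2 signal of the 2 actin and 10 NET genes on the horizontal axis, with 1 gene per row, for 3 arrays of 48-h light submergence (blue circles) and 3 control arrays (orange squares). Black bars are means and the bands span the background levels of each condition. NET4B lies further right after submergence, ACT11, NET1A and NET1B lie further left, and NET1D spreads to both sides of its control values.

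The genes that fell varied more between submerged than between control replicates. They were chosen for lying lower on the submerged arrays, where several were below background. A wider spread there may follow from the lower signal, which was not tested. The set of all genes that fell was chosen in the same way. The median SD of the log2 signal over the 19 genes was 0.54 after submergence and 0.20 in the control. Over all 2998 genes that fell, the median SD was 0.43 after submergence and 0.21 in the control. The third submerged replicate had the highest of the 3 submerged signals for 12 of the 19 genes (63.2%) and for 55.0% of all genes that fell, and the second replicate had the lowest for 10 of the 19 (52.6%) and for 58.6% of all genes that fell. The difference between replicates was thus present in genes outside these families too. When the third submerged replicate was left out, 20 of the 35 genes fell, and when the second was left out, 19 fell.

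**Figure D5:**
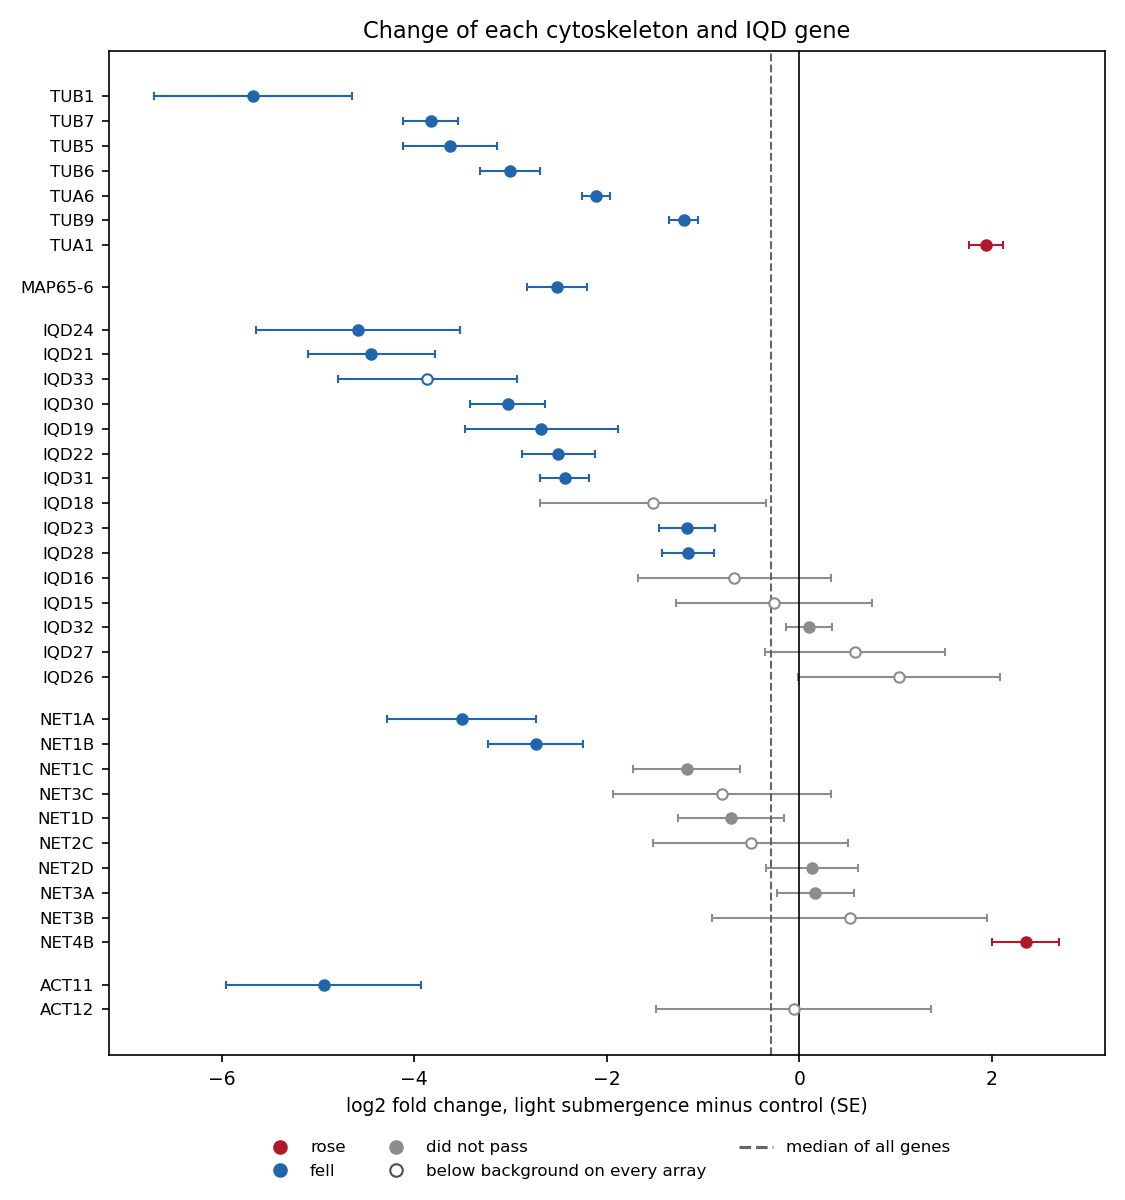
Log2 fold change, light submergence minus control, of each of the 35 genes on the horizontal axis, grouped by family, with the standard error from limma (n = 3 arrays per condition). Red points rose, blue points fell and grey points did not pass; open points mark genes below background on every array, and the dashed line is the median of all genes at -0.29. TUA1 and NET4B are the 2 genes that rose.

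Other genes of microtubule and actin function were listed by textbook role and not for how they moved, but with earlier results of these data known. The list is not complete. Of 42 listed genes, 8 had a probe set of their own, and 3 of these fell, 1 rose and 4 did not pass the test, with a median log2 fold change of -0.31, where 22.6% of all genes fell and 15.7% rose. CC1, a companion of cellulose synthase that binds microtubules, had log2 signals averaging 8.71 ± 0.36 after submergence and 10.00 ± 0.06 in the control (SD, n = 3 each), and was 2.44-fold lower (limma adjusted p = 0.000286). PIR121, a subunit of the SCAR/WAVE complex that activates actin nucleation, was 2.26-fold lower (limma adjusted p = 0.000532), and TON1B, needed for the preprophase band of microtubules, was 2.23-fold lower (limma adjusted p = 0.0104). The call for TON1B was lost without control replicate 3 (adjusted p = 0.0541) and after quantile normalization (adjusted p = 0.0891), and it does not hold at an adjusted p under 0.01.

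ARPC5, a subunit of the actin-nucleating ARP complex, averaged 8.64 ± 0.27 after submergence and 8.01 ± 0.12 in the control (SD, n = 3 each), and was 1.55-fold higher (limma adjusted p = 0.0274). This call, close to the threshold, was lost without submerged replicate 2 or 3 or control replicate 1 or 2, with adjusted p of 0.0944, 0.0549, 0.0794 and 0.0664 in that order. SPR1, a microtubule plus-end protein, had a log2 fold change of -0.32 (limma adjusted p = 0.12). The actin turnover factors AIP1-1 and AIP1-2 had -0.07 and -0.19, and BRK1, another SCAR/WAVE subunit, had -0.30, and none of them passed. In the annotation used, none of 7 calmodulin genes, whose products bind IQD proteins, had a probe set assigned to it alone. The same held for 3 genes of primary-wall cellulose synthase.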

How the data were processed

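Transcripts were measured on 6 ATH1 arrays, 3 of 48-h light submergence and 3 of untreated controls, grouped by the sample titles. The authors summarised each probe set with MAS5, and the deposited values are log2 signals, with linear signals scaled to a trimmed mean (2%) of 495 to 496 on each array. Trizol extraction is given in the labels and a column kit in the methods. Probe sets were named through the platform annotation, and 13436 of 13513 single-gene probe sets matched a locus of the TAIR10.1 gene table by Entrez identifier, for 13286 genes. A gene was represented by its brightest probe set. Protein, promoter and probe sequences were not used here.

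The conditions were compared on the log2 scale in R 4.3.3 by limma 3.58.1, whose moderated variances followed a trend with mean signal, without a replicate block. P-values were adjusted by the Benjamini-Hochberg method over 22746 probe sets. The script was tested on simulated data. Where a changed gene was above the 40th percentile on none of the arrays of 1 condition, a lower bound of the fold is given: the mean of the other condition against the background level averaged over the 3 arrays of the condition below it. Precision is limited by the number of arrays. The study names no test beside its thresholds of 1.5-fold and P under 0.05.

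The members and lists were chosen with earlier results of these data known. The naming rule took up to 4 changed genes per family and direction, and every gene of families of up to 6, and the remaining members were named with their values in view. Alternatives tried were an offset of 32, the 75th percentile subtracted, quantile normalization, a filter that asked for 3 or more arrays above background, no variance trend, a replicate block, other thresholds and leaving out each array. Plots were made in Python 3.11.15 (matplotlib 3.10.9).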

Additional observations from a re-analysis of the deposited data

How the results depend on the processing

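Of the 21 genes called changed, 20 kept their direction and their call under every alternative that could be fitted, and IQD19 lost its call in 5 of 14. No called direction was reversed. Over the 35 genes, 2 rose under each alternative. The number that fell was 18 after quantile normalization, with the filter on low values, without the variance trend and at an adjusted p under 0.01, 19 after subtraction of the 75th percentile, with the offset and at 2-fold, and 18 to 20 when 1 array was left out. With only probe sets of a mean signal above mean background, an alternative chosen after seeing the data, 14 fell. The 1 other cytoskeleton gene that rose, ARPC5, was no longer called after subtraction of the 75th percentile, with the offset, without the variance trend, at 2-fold and at an adjusted p under 0.01 (0 genes in each), and 0 to 1 rose and 2 to 3 fell when 1 array was left out. The offset, which damps low signals, gave smaller log2 fold changes for genes near or below background after submergence, such as -3.16 for TUB1, -2.48 for ACT11 and -1.90 for NET1A. As deposited, the log2 fold changes of all probe sets had a median of -0.26, against 0.02 after quantile normalization, and that of the 35 genes -1.20 and -1.08. The median of the members left was -2.51 with the filter on low values. It was -2.28 among those with a mean signal above the background averaged over the 6 arrays. Both selections also keep genes that are high in 1 condition only. Over all probe sets, 4159 rose and 5525 fell as deposited, and 4559 and 4792 after quantile normalization.

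Same-numbered replicates did not deviate together (r of 0.03, -0.01 and 0.06). The labels do not say whether the numbers pair the samples. With the replicate block, 2 of the 35 genes rose and 19 fell, 1 other cytoskeleton gene rose and 3 fell, and 4051 probe sets rose and 5288 fell. The alternatives on genes with several probe sets and on symbols of no cytoskeleton gene applied to no member. For the 10 genes below background on all arrays, the signal gives no usable fold.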

Other observations

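IQD19 and NET1B lie next to each other in the TAIR10.1 gene order, with 0 protein-coding genes between them, and no other members had 2 or fewer such genes between them. Both fell after submergence, with log2 fold changes of -2.68 and -2.74. The call for IQD19 was lost in 5 of 14 alternatives. Of the submerged arrays, 1 of 3 was above background for IQD19 and 2 of 3 for NET1B. The pair was looked for after the values had been seen, and its shared direction was not tested.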
